A study of Mus musculus with 8 samples.

Results

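Klf4 and Klf10 are 2 genes of the Krüppel-like factor family, measured here in mouse MA9 leukemia cells with and without Gata2. They were selected on their difference between the genotypes and on where their rows lie in the count table, and they are 2 of its 49585 rows. In all, 17 rows carry a Krüppel-like factor name. These 2 are the only ones inside the stretches of the genome where row names passed the check described below. Each of them lies there only by a choice of check genes given with the check. Poly(A) RNA was sequenced from 8 libraries, 4 of Gata2 f/f leukemia cells, where f/f denotes unrecombined floxed alleles, and 4 of Gata2 KO cells, labelled Gata2 -/-. MA9 is commonly written for MLL-AF9, a fusion oncogene of acute myeloid leukemia, and the source of the cells is given as bone marrow. Cells of both genotypes were cultured with IL-3, IL-6 at 10 ng/mL, SCF at 20 ng/mL and 15% fetal bovine serum. The labels do not say how Gata2 was deleted, or whether replicates were separate leukemias, animals or cultures. All p-values below therefore measure only the spread between these libraries.

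Krüppel-like factors bind GC-rich and CACC-type DNA elements through zinc fingers at their C-terminal end. KLF4 is known in blood for its part in monocyte differentiation and for slowing cell division, and it is also one of the classical reprogramming factors. KLF10 was first described as an early gene induced by TGF-beta, and it acts mainly as a repressor and in feedback on SMAD signalling. GATA2, the factor lost in the KO cells, is a zinc finger protein of blood stem and progenitor cells.

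In GRCm38 coordinates Klf4 (ENSMUSG00000003032.8) spans chromosome 4 from 55527143 to 55532466 on the minus strand. GENCODE M21 gives it 3 transcripts whose exons cover 3049 bp. Klf10 (ENSMUSG00000037465.9, a later version of the same identifier in GENCODE M21) spans chromosome 15 from 38291463 to 38300706, also on the minus strand, with 6 transcripts covering 4179 bp. The library kit does not mark strand, but 0 annotated genes overlap either of the 2.

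The promoter of Klf4 is printed because the genotypes differ in a DNA-binding factor, to show which short elements lie at the start of this gene. The bases run from 250 before the start to 20 after it, 5′ to 3′ along the gene (RefSeq, GRCm38.p6, chr4:55532456-55532725, minus strand). Capitals mark matches to GGGCGG, the GC box, on either strand.
Klf4 promoter: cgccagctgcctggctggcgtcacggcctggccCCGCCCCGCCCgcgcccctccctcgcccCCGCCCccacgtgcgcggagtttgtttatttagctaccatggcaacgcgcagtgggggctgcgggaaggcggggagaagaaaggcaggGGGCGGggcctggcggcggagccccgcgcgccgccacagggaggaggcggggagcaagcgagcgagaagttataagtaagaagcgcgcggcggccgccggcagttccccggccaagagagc
Of the 300 bases in the RefSeq table for this promoter, 74.3% were G or C, against a median of 52.7% over 32851 promoters, and 95.6% of promoters had a lower share. GGGCGG occurred 4 times in the Klf4 promoter, starting at -217, -212, -189 and -101 from the start, and the first matches overlap. It occurs in 35.7% of all promoters of the table on either strand. The E-box CACGTG occurred once, at -182, and is held by 7.15% of promoters. The letters GATA, held by 57.9% of promoters, had 0 matches in this window on either strand, as did CACCC, held by 57.5%. These are matches of letters only, and they say nothing about binding at this promoter or elsewhere around the gene.

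Klf4 was sparsely counted in Gata2 f/f cells. Gata2 f/f replicates 1 to 4 held 6, 2, 11 and 28 Klf4 counts, which is 2.90, 1.24, 5.15 and 5.11 CPM, counts scaled to a common library total. Gata2 KO replicates 1 to 4 held 18, 59, 86 and 287 counts, or 9.27, 27.3, 20.8 and 46.0 CPM. Every Gata2 KO library lay above every Gata2 f/f library, and the lowest KO value was 1.80 times the highest f/f value. Replicate 1 was the lowest of the Gata2 KO libraries, and its exact Poisson 95% interval, 5.49 to 14.6 CPM, still overlapped the 2.57 to 9.22 CPM of Gata2 f/f replicate 3. Gata2 f/f replicate 2 rests on 2 counts, with an interval of 0.150 to 4.49 CPM. These intervals cover counting error only.

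Klf10 was well counted in every library. Gata2 f/f replicates 1 to 4 held 227, 196, 217 and 551 Klf10 counts, or 110, 122, 102 and 101 CPM. Gata2 KO replicates 1 to 4 held 303, 420, 639 and 959 counts, or 156, 195, 155 and 154 CPM. All 4 Gata2 KO libraries again lay above all 4 Gata2 f/f libraries, with the lowest KO value 1.26 times the highest f/f value. The Poisson intervals of Gata2 KO replicates 1 and 2 ran from 139 to 175 and from 176 to 214 CPM, and that of Gata2 f/f replicate 2 from 105 to 140 CPM. Both members therefore did not overlap between genotypes. This held, with higher values in Gata2 KO, for 711 of the 6580 rows tested, or 10.8%, and since the members were chosen by this contrast nothing is read from their part in it.

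**Figure D1:**
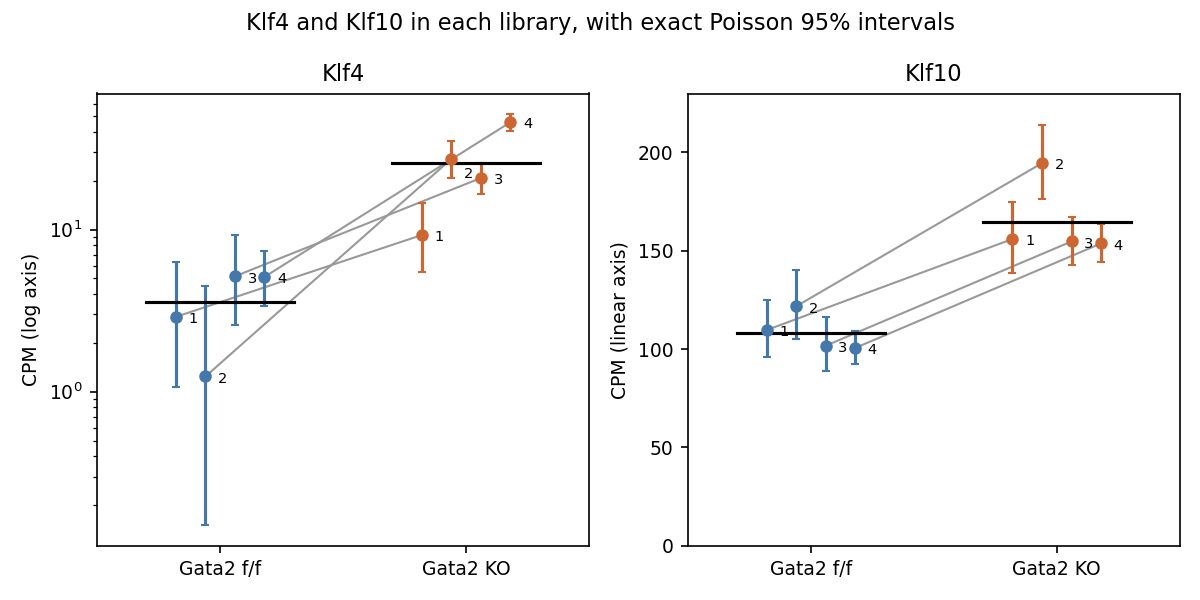
CPM of Klf4 (left, log axis) and Klf10 (right, linear axis from 0) in each library, with exact Poisson 95% intervals, black bars for genotype means, replicate numbers beside the points and grey lines joining libraries of the same number. The 4 Gata2 KO libraries lie above all 4 Gata2 f/f libraries for both genes, from 9.27 to 46.0 CPM for Klf4 and from 154 to 195 CPM for Klf10.

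Klf4 averaged 3.60 ± 1.89 CPM (SD, n = 4) over the Gata2 f/f libraries and 25.9 ± 15.4 CPM (SD, n = 4) over those of Gata2 KO, a ratio of means of 7.18. For Klf10 the means were 108 ± 9.76 and 165 ± 19.9 CPM (SD, n = 4 each), a ratio of 1.52. In the edgeR model of all 8 libraries, with TMM scaling, the log2 fold change (Gata2 KO minus Gata2 f/f) was 2.76 ± 0.45 (SE) for Klf4 and 0.62 ± 0.13 (SE) for Klf10. No test is given for either, since this contrast chose them. The median log2 fold change of all 6580 rows tested was -0.01. Ordered from the most raised row down, Klf4 stood at place 9 of 6580 and Klf10 at place 604. Nothing is read from these places, which come from the same contrast. Klf4 also passed the filter on low counts only through its Gata2 KO libraries. Klf4 thus had a large difference on few counts, and Klf10 a small difference on many. In RNA from a whole culture, more cells that make these transcripts and more transcript per cell cannot be told apart.

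The genotypes share replicate numbers 1 to 4, and Klf10 differed by nearly the same amount in each pair. Its CPM ratio of Gata2 KO to Gata2 f/f was 1.42, 1.6, 1.52 and 1.53 in pairs 1 to 4, with exact binomial 95% intervals that all overlap, from 1.19 to 1.70 in pair 1 and from 1.35 to 1.90 in pair 2. On the log2 CPM scale the mean difference within pairs was 0.62 ± 0.10 (SD, n = 4 pairs). The Klf4 ratios were 3.20, 22.0, 4.04 and 9.0, with intervals that are wider and also all overlap. They ran from 1.22 to 9.84 in pair 1, from 2.15 to 8.40 in pair 3 and from 6.10 to 13.8 in pair 4. Pair 2 is the widest, from 5.83 to 186, and its Gata2 f/f library held 2 counts. The mean log2 difference of Klf4 within pairs was 2.60 ± 1.11 (SD, n = 4 pairs), and all 4 pairs had the higher value in Gata2 KO for both genes.

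Klf4 also varied more than Klf10 among libraries of 1 genotype. Its coefficient of variation was 52.6% in Gata2 f/f and 59.4% in Gata2 KO, against 9.0% and 12.1% for Klf10. The chi-square of the 4 library counts over its degrees of freedom, which is near 1 where only counting error acts, was 1.93 for Klf4 in Gata2 f/f and 29.8 in Gata2 KO. For Klf10 it was 1.97 in Gata2 f/f and 6.17 in Gata2 KO. The median over the rows tested was 3.45 in Gata2 f/f and 3.85 in Gata2 KO. The Klf4 spread among Gata2 KO libraries, from 9.27 to 46.0 CPM, therefore exceeded what their counts alone give. It was not tested against the spread of other rows.

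Per kilobase of exon, Klf10 was the more abundant of the pair in every library. Its level was 25.9 ± 2.34 CPM per kb in Gata2 f/f and 39.4 ± 4.76 in Gata2 KO, and that of Klf4 was 1.18 ± 0.621 and 8.48 ± 5.04 (SD, n = 4 each). The ratio of Klf10 to Klf4, per kilobase, in replicates 1 to 4 was 27.6, 71.5, 14.4 and 14.4 for Gata2 f/f. For Gata2 KO the 4 ratios were 12.3, 5.19, 5.42 and 2.44. The ratio was thus lower in every Gata2 KO library than in any Gata2 f/f library, as follows where the rarer gene differs by the larger factor. In fitted mean level, which is not per length, 26.4% of the rows tested lay below Klf4 and 77.0% below Klf10.

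Leaving out any 1 library moved the log2 fold change of Klf4 between 2.35, without Gata2 KO replicate 4, and 3.0, without Gata2 KO replicate 1. The range of Klf10 was 0.53, without Gata2 KO replicate 2, to 0.69, without Gata2 KO replicate 4. With the replicate number as a block the values were 2.90 ± 0.25 for Klf4 and 0.62 ± 0.08 for Klf10 (SE). Both libraries numbered 4 are the deepest and stood apart from the others in the second principal component of the table (29.1% of the variance). Without both of them the fold changes were 2.59 and 0.63.

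Row names bear on every value here, because many rows of this table do not appear to hold what their names say. A set of 612 genes was taken as widely expressed, mainly by family names such as those of ribosomal, proteasome and splicing proteins. Some of them may be used by few tissues, and 375 of the 612 (61.3%) lay under 1 CPM in the pooled libraries. Names were therefore taken as gene names only in stretches where 5 or more of the 612 genes in a row, covering 5 Mb or more, all reached 20 CPM. There were 3 stretches, on chromosomes 4, 6 and 15, with 1249 rows. Total counts ran from 1610369 to 6237748 a library, so 3 counts, taken as the one-sided 95% limit that a count of 0 allows, were 0.481 to 1.86 CPM. The Gata2 row lies outside the stretches and held 0 to 2 counts in every library of both genotypes, so it does not check the genotype labels. Of 5 marker lists, 1 row lay in a stretch, the fibroblast collagen gene Col1a2, with 5 counts over the 8 libraries. The 8 myeloid marker rows all lay outside, 6 of them under 1 CPM and Itgam at 0, so their sums, 77.4 to 99.2 CPM in Gata2 KO and 68.1 to 101 CPM in Gata2 f/f, cannot check the cell label. Of the stromal and endothelial rows 7 of 11 were under 1 CPM, with Lum and Cdh5 at 0, and of the epithelial rows 3 of 6. All 6 erythroid rows, with Hbb-bs at 0, and 4 of 6 lymphoid rows were under 1 CPM. The summed rows ran from 472 to 525 CPM in Gata2 KO and 371 to 444 in Gata2 f/f for stromal and endothelial markers. They ran from 1506 to 1997 and 1656 to 2042 for epithelial, 0.160 to 1.39 and 0.365 to 1.24 for erythroid, and 41.7 to 68.5 and 34.5 to 41.7 for lymphoid markers. The stromal sum did not overlap between genotypes and was higher in Gata2 KO, and the part of these rows, whose names were not checked, in the values of Klf4 and Klf10 was not tested.

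Klf4 lies inside a stretch that spans chromosome 4 from 3831334 to 59438633, 51.7 Mb past its start and 3.91 Mb before its end. Within 10 Mb of Klf4, 19 of 20 genes of a shorter, named list of widely expressed genes reached 20 CPM, from 69.9 to 2583 CPM. Those that passed, here and around Klf10, are part of the check itself, so these counts add no separate support for the names. The exception on that list was Tmod1 at 0.155 CPM, a tropomodulin gene restricted to certain tissues. Past the end of the stretch, but still within 10 Mb, other genes of the check fell short. Cdc26 held 0.621 CPM, Prpf4 8.19 and Atp6v1g1 0. Rad23b, a DNA repair and proteasome shuttle gene whose start is 0.177 Mb from that of Klf4, held 2101 CPM.

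Klf10 lies near the end of its stretch, which spans chromosome 15 from 27466677 to 38692446. Of 18 genes of the shorter list within 10 Mb of Klf10, 16 reached 20 CPM, from 25.6 to 10859 CPM. Azin1, the antizyme inhibitor of polyamine control, whose start is 0.196 Mb from that of Klf10, held 824 CPM. The stretch ends 0.392 Mb past Klf10, at Atp6v1c1, a proton pump subunit. Beyond it 24 of 26 protein-coding rows within 10 Mb of Klf10 were under 1 CPM, among them Eif3e, a translation factor subunit, at 0.0776 CPM. The check had left out 6 names known from few tissues, a choice made after their counts were seen. If they are kept, Spag1, a gene of motile cilia at 7.76 CPM, breaks the run on chromosome 15. Klf10 then lies outside any stretch, while Klf4 stays inside one. The Klf10 name is for this reason uncertain. The stretches on chromosomes 4 and 6 also shorten, to 46155347 to 59438633 and 3498382 to 29470512. Of the genes described with values, Irf5, Atp6v0d2, Azin1, Atp6v1c1, Fancg, Tnpo3, Orc3 and Pabpc1 then lie outside any stretch too. Their names are likewise uncertain. The stretch around Klf4 depends on genes added to the check by single names, such as Rad23b. The last gene before Klf4 that entered by family name is Mrpl50, at -6.01 Mb from Klf4 and 336 CPM. The next is Cdc26 at 0.621 CPM. By family names alone, Klf4 and its neighbours within 5 Mb would lie past the stretch. Klf10 would stay inside one that runs through Cct5, Cox6c and Atp6v1c1. The Klf4 name is thus uncertain too.

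**Figure D2:**
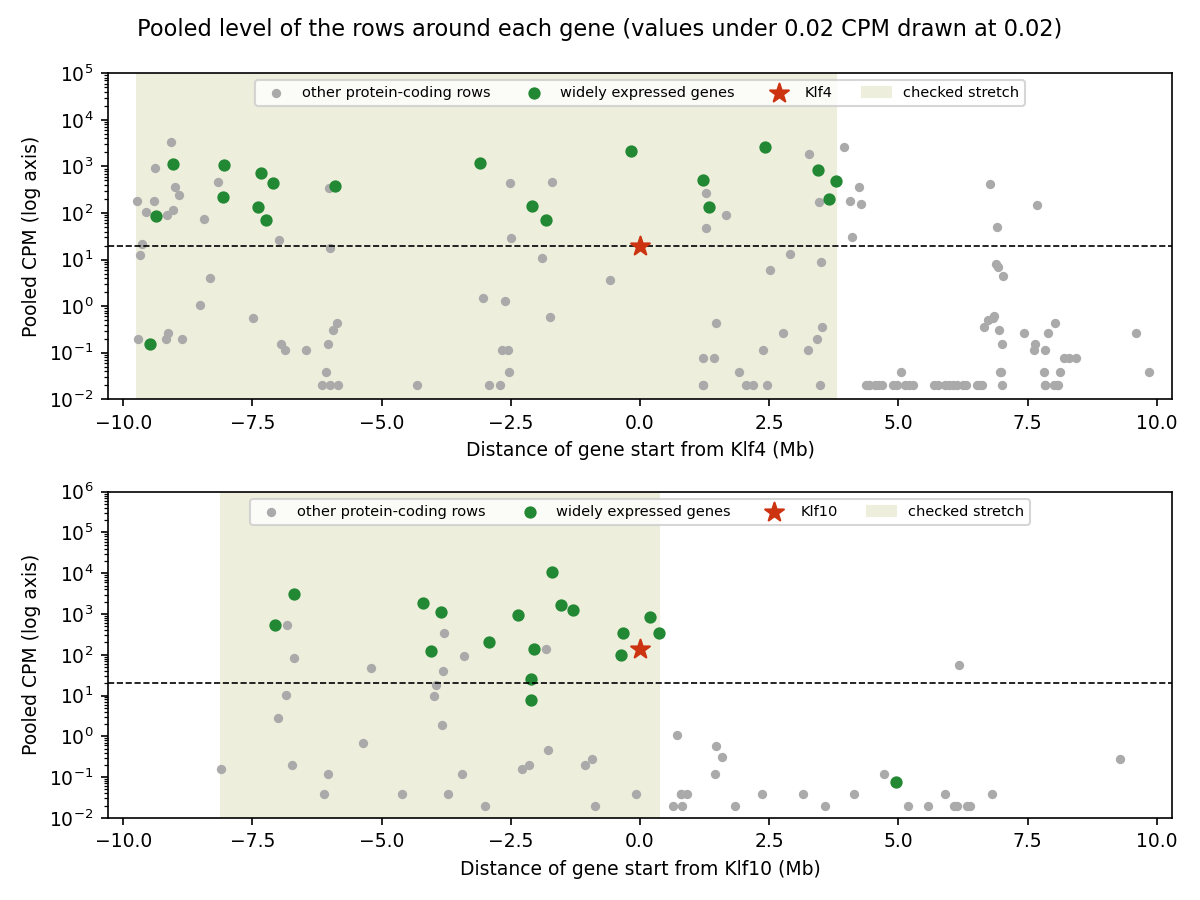
Pooled CPM (log axis) of protein-coding rows within 10 Mb of Klf4 (top) and Klf10 (bottom), against the distance of each gene start in Mb. Green points are widely expressed genes of the shorter, named list, and grey points are all other rows. Shading is the checked stretch and the dashed line 20 CPM. Klf4 has green points above the line on both sides, and Klf10 lies 0.392 Mb before the end of its stretch, beyond which most rows hold almost no counts.

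Genes around the members were tested to see how their neighbourhoods differed between genotypes, with edgeR over all 6580 rows. Within 5 Mb of Klf4, 21 genes inside the stretch were tested, and 2 rose and 4 fell in Gata2 KO at an adjusted p under 0.05. Within 5 Mb of Klf10, 1 of 21 rose and 1 fell. Of all rows tested, 8.97% were higher and 3.53% lower. The median log2 fold change was 0.02 for the genes around Klf4 and -0.01 for those around Klf10, beside -0.01 for all rows.

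The genes that rose near Klf4 were Slc44a1, a choline transporter, and Lpar1, a receptor for lysophosphatidic acid. Slc44a1 went from 71.7 ± 12.9 CPM in Gata2 f/f to 208 ± 39.6 in Gata2 KO (SD, n = 4 each). Its log2 fold change was 1.57 ± 0.20 (SE) with an adjusted p of 0.000424 in edgeR. Lpar1 went from 6.80 ± 1.00 to 16.2 ± 4.08 CPM, a log2 fold change of 1.28 ± 0.23 (adjusted p = 0.00325, edgeR). Both lie over 2 Mb from Klf4, on opposite sides, with genes between them and Klf4 that did not pass. Of those that fell, Ptpn3, a tyrosine phosphatase gene, stood at 119 ± 28.2 and then 56.8 ± 9.99 CPM (a log2 difference of -1.04, adjusted p = 0.0014, edgeR). Ctnnal1, the gene of alpha-catulin, went from 61.5 ± 9.20 to 32.7 ± 4.66 CPM (-0.89, adjusted p = 0.0019, edgeR). Susd1 fell by less (-0.49, adjusted p = 0.0104, edgeR).

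Rad23b, the protein-coding gene nearest to Klf4, was at 2292 ± 86.5 CPM in Gata2 f/f and 2000 ± 85.6 in Gata2 KO (SD, n = 4 each). Its log2 fold change was -0.18, with a 95% interval of -0.40 to 0.04 (adjusted p = 0.35 in edgeR and 0.0189 with the replicate block). The interval of Rad23b excludes a difference of the size measured for Klf4. Around Klf10, the gene 9430069I07Rik rose from 12.1 ± 2.45 CPM in Gata2 f/f to 25.4 ± 3.87 CPM in Gata2 KO, or by 1.09 ± 0.21 (SE) on the log2 scale (adjusted p = 0.00518, edgeR). It lies within the coordinates of Matn2, and the overlap of their exons was not examined. Without strand, reads from any shared exon bases cannot be told apart. The Matn2 row gave a log2 fold change of 0.52 (adjusted p = 0.216 in edgeR and 0.0493 with the replicate block). Pop1, a subunit of RNase P, fell by 0.40 on the log2 scale (adjusted p = 0.0167, edgeR). Pop1 no longer passed when replicate 3 of Gata2 KO, or replicate 2 or 3 of Gata2 f/f, was left out, with adjusted p from 0.0547 to 0.07 in edgeR.

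Genes beside Klf10 did not pass. Azin1 was at 905 ± 158 CPM in Gata2 f/f and 887 ± 173 in Gata2 KO (SD, n = 4 each), with a log2 fold change of -0.01 and a 95% interval of -0.40 to 0.37. Its adjusted p was 0.985 in edgeR, and its interval lies below the 0.62 measured for Klf10. Atp6v1c1 gave 0.21 (adjusted p = 0.396 in edgeR and 0.0125 with the block). With the replicate number as a block, 5 genes rose and 7 fell around Klf4, and 5 rose and 6 fell around Klf10. Those counts stand beside 18.8% of all rows higher and 16.7% lower with the block.

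**Figure D3:**
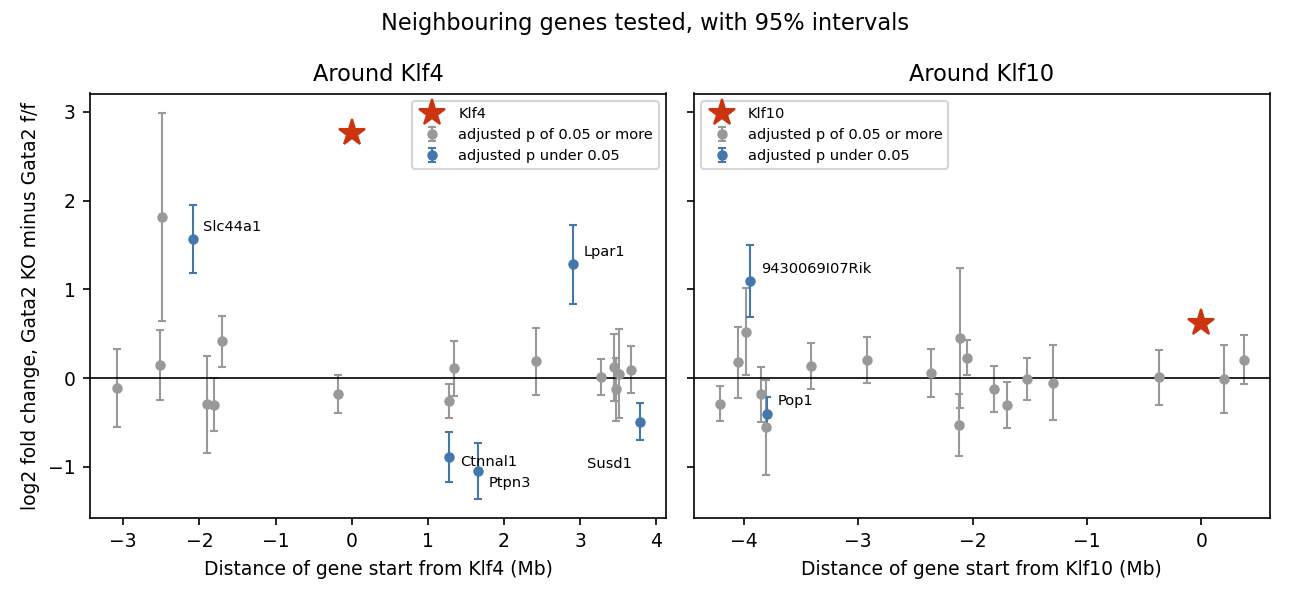
Log2 fold change (Gata2 KO minus Gata2 f/f) of the neighbouring genes tested inside the checked stretches, with 95% intervals, against the distance of each gene start in Mb from Klf4 (left) and Klf10 (right); stars are Klf4 and Klf10 themselves and blue points passed an adjusted p of 0.05 in edgeR, with 2 tested genes not shown. Klf4, at 2.76, was chosen by this contrast and lies above the estimates of all its neighbours shown, though the interval of Abca1 reaches 2.99. The nearest tested neighbours, Rad23b (-0.18) and Azin1 (-0.01), lie close to 0.

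The other genes of the pathways in which these factors act were taken from 6 lists of monocyte genes, TGF-beta genes, immediate early genes and cell cycle genes. The lists were chosen with earlier results of these data known. The counts, medians and p-values of list genes, here and below, are therefore descriptions only. Of 105 genes listed, 23 passed the filter on low counts, 8 were higher and 1 lower in edgeR, and the median log2 fold change of the 23 was 0.25. These stand beside 8.97% higher and 3.53% lower of all rows. With the replicate block 11 were higher and 2 lower. Most of these rows lie outside the checked stretches and are counted by name only. Of the monocyte transcription factor rows 2 of 4 tested were higher and 0 lower, and of the monocyte and macrophage effector rows 3 of 6 and 0. Of the TGF-beta ligand, receptor and SMAD rows 1 of 2 was higher, and of the TGF-beta early response rows 1 of 7. In the immediate early list 1 of 3 was higher, and in the cell cycle list 0 of 2 was higher and 1 lower. The list medians, in that order, were 0.21, 1.19, 0.38, -0.06, -0.06 and -1.22.

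Inside the stretches 5 list genes were tested, 4 of them from the monocyte and macrophage lists, and 3 of these 4 rose. Of those that rose, Irf5 and Atp6v0d2 lie outside the stretches if the tissue-restricted names are kept in the check. Of the 307 rows tested in the stretches beside Klf4 and Klf10, the 5 list genes included, 27 were higher and 13 lower. Irf5, an interferon regulatory factor that drives inflammatory cytokine genes in macrophages, stood at 51.2, 64.6, 40.3 and 49.6 CPM in Gata2 f/f replicates 1 to 4. In Gata2 KO it stood at 228, 238, 256 and 304 CPM, and it rose by 2.34 ± 0.15 (SE) on the log2 scale (adjusted p = 6.5e-06, edgeR). The genotypes did not overlap for Irf5, and its KO libraries were closer to each other than those of Klf4. Tfec, a macrophage factor of the MiT family, stood at 1169, 1223, 1096 and 940 CPM in Gata2 f/f and at 1868, 1633, 1510 and 1484 CPM in Gata2 KO. Its log2 fold change was 0.57 ± 0.14 (SE, adjusted p = 0.0231, edgeR), near that of Klf10 in size. Tfec no longer passed when replicate 1, 2 or 3 of Gata2 KO or replicate 3 of Gata2 f/f was left out, with adjusted p from 0.052 to 0.075 in edgeR.

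Atp6v0d2, a proton pump subunit of macrophages and osteoclasts, stood at 5.80, 7.45, 14.1 and 4.01 CPM in Gata2 f/f replicates 1 to 4. In Gata2 KO replicates 1 to 4 it stood at 16.5, 35.7, 146 and 38.5 CPM, and it rose by 3.06 ± 0.66 (SE) on the log2 scale (adjusted p = 0.0102, edgeR). The genotypes did not overlap, but replicate 3 was far above the other KO libraries, and without it the log2 fold change of Atp6v0d2 was 2.04. Klf4 was highest in replicate 4 instead, while replicate 1 was the lowest KO library for both genes. Abca1, the cholesterol exporter of macrophages, stood at 9.18, 16.8, 16.4 and 6.39 CPM in Gata2 f/f and at 7.21, 26.4, 89.6 and 32.2 CPM in Gata2 KO. It overlapped between genotypes and did not pass, with a log2 fold change of 1.81, a 95% interval of 0.64 to 2.99 and an adjusted p of 0.0719 in edgeR. Abca1 passed with the replicate block (adjusted p = 4.38e-05, edgeR) and without Gata2 KO replicate 1 (0.0189) or 4 (0.0475). Without Gata2 KO replicate 3, its highest library, the log2 fold change of Abca1 was 0.95 (adjusted p = 0.266, edgeR).

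Of the TGF-beta pathway, the receptor gene Tgfbr1 alone could be tested in a checked stretch. Tgfbr1 stood at 441, 455, 456 and 377 CPM in Gata2 f/f replicates 1 to 4 and at 579, 529, 517 and 408 CPM in Gata2 KO replicates 1 to 4. Its KO libraries overlapped those of Gata2 f/f through replicate 4, although each pair was higher in Gata2 KO. The log2 fold change was 0.25 with a 95% interval of -0.04 to 0.54 (adjusted p = 0.324 in edgeR, 0.00578 with the replicate block and 0.0258 without both libraries numbered 4). Nr4a3, an immediate early gene in the chromosome 4 stretch, had 0 to 5 counts a library and was not tested. Genes that answer TGF-beta early, the group in which Klf10 was first described, had 0 rows in the stretches.

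**Figure D4:**
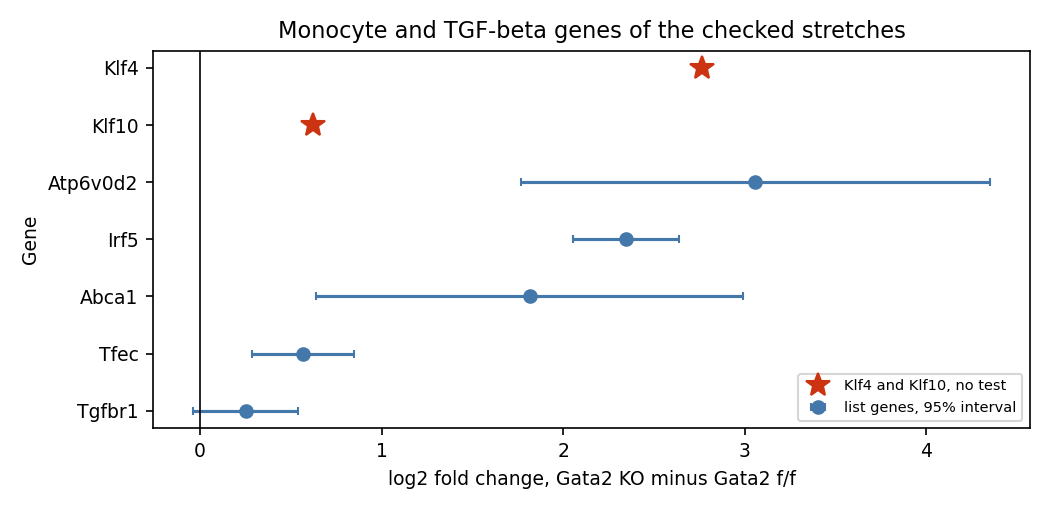
Log2 fold change (Gata2 KO minus Gata2 f/f, horizontal axis) of Klf4, Klf10 and the 5 list genes tested in the checked stretches, with 95% intervals for the list genes and none for Klf4 and Klf10, which have no test. Irf5, Atp6v0d2 and Tfec passed an adjusted p of 0.05 in edgeR, and Abca1 (1.81) and Tgfbr1 (0.25) did not.

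Within Gata2 KO, the library highest for Klf4, replicate 4, was the lowest for Klf10. With the mean of each genotype subtracted from log2 CPM, r was -0.45 between them over the 8 libraries, and -0.0891 without both libraries numbered 4. Gata2 KO replicate 4 was 0.94 above its genotype mean for Klf4 and -0.18 from it for Klf10. The 8 points of each r share their libraries and depths, so these values are descriptions only. Among 313 rows compared, in the stretches or within 5 Mb of a member, Klf10 ranked 159 in likeness to Klf4, and Klf4 ranked 271 in likeness to Klf10.

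The 5 rows most like Klf4 by this measure were Gm9825 (r = 0.89), Ctnnal1 (0.87), Fancg (0.84), Tnpo3 (0.83) and Impdh1 (0.80). Their deviations ran from -0.25 to 0.26, against -1.16 to 0.94 for Klf4. Ctnnal1 and Impdh1, the gene of an enzyme of guanine nucleotide synthesis, fell in Gata2 KO (log2 fold change -0.89 and -0.85, adjusted p = 0.0019 and 0.000578, edgeR), so they followed Klf4 within genotypes and went the other way between them. Tnpo3 gave -0.16 between genotypes (adjusted p = 0.306 in edgeR and 0.0482 with the replicate block). The 5 rows most like Klf10 were Orc3 (r = 0.92), Laptm4b (0.92), Gm12444 (0.92), Trim14 (0.92) and Pabpc1 (0.91). Pabpc1, the gene of the poly(A) binding protein, and Orc3, of the origin recognition complex, gave -0.30 and -0.39 between genotypes and did not pass (adjusted p = 0.181 and 0.103, edgeR), though both passed with the replicate block (0.00182 and 0.000177). All 5, like Klf10, were lowest in the replicates numbered 4 of Gata2 f/f, and the libraries numbered 4 are the deepest of each genotype. The part of depth in these likenesses was not tested.

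**Figure D5:**
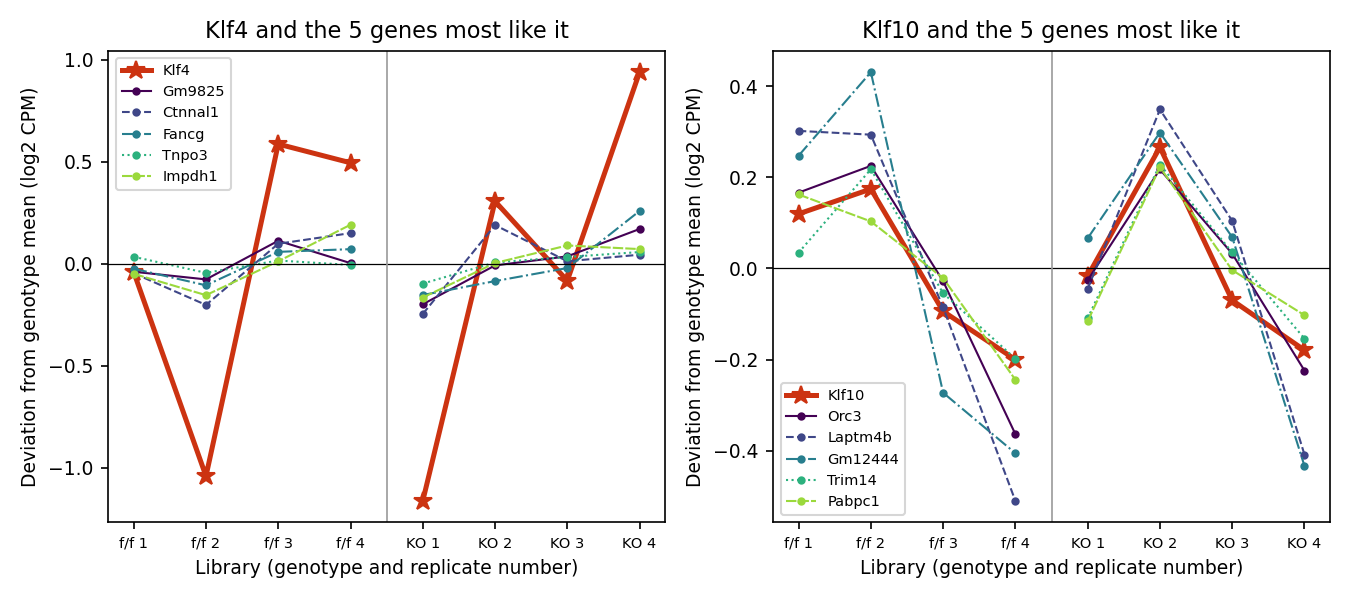
Deviation of log2 CPM from the genotype mean in each library (horizontal axis, Gata2 f/f then Gata2 KO) for Klf4 (left) and Klf10 (right) in red and the 5 rows most like each; lines only join the values of 1 gene, since replicates have no order. Klf4 runs from -1.16 in Gata2 KO replicate 1 to 0.94 in Gata2 KO replicate 4, where Klf10 lies at -0.18.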

How the data were processed

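Poly(A) RNA libraries were read in pairs of 65 bp reads, as the labels' protocols state. The authors deposited 1 table of raw whole-number counts for each Ensembl gene. Its 8 columns were matched to samples by their descriptions. The submitters' processing notes name mm10, kallisto, HTSeq and DESeq2, while the step that made the counts and its annotation is not given in the sources used here. Of 49585 rows, 99.5% matched a GENCODE M21 gene (88.2% with the same version). How counts came to lie under other names was not tested.

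Klf4 and Klf10, the gene lists and the tests were chosen with earlier results of these data known. Counts were fitted in edgeR 4.0.16 (R 4.3.3) with TMM factors, filterByExpr at its default minimum count of 10, the quasi-likelihood F-test and Benjamini-Hochberg adjustment over 6580 rows, with genotype alone in the model. The SE is the log2 fold change divided by the square root of F, and the 95% intervals of fold changes are normal ones from that SE. CPM used library totals, and log2 CPM used TMM and a prior count of 2. The fit was tested on simulated data. Intervals of single libraries are exact Poisson, and those of ratios come from exact Clopper-Pearson limits.

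Named were the members, the nearest widely expressed neighbours, up to 5 called neighbours of each member by smallest adjusted p, every tested list gene in a checked stretch, and the 5 rows most like each member. Tmod1, Spag1, Eif3e, Nr4a3, Matn2 and single marker rows were named after their values were seen. The values of 2 neighbouring genes are not reported here, though they are in the counts.

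Deviations from genotype means correlated between same-numbered libraries at 0.333, 0.213, 0.243 and 0.804. The highest r of the same Gata2 KO libraries with a Gata2 f/f library of another number was 0.155, 0.182, 0.130 and -0.333. The numbers were taken as pairs on these values, though the margin was small for replicate 2 and no label says what they share. Fits with a replicate block were alternatives, as were DESeq2 1.42.0, library totals, no filter, a prior count of 0.5 and leaving out libraries. The check of row names with tissue-restricted names kept was added after seeing the data. The RefSeq promoter table matched 1 of the 2 members.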

Additional observations from a re-analysis of the deposited data

Results flagged for a closer look

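Klf10 in Gata2 KO replicate 2 stood at 195 CPM, while the other Gata2 KO libraries lay between 154 and 156 CPM. Its gap to the nearest of them was 0.945 of the whole range of the 4 libraries, above the 95% critical value of Dixon's test for 4 samples. Gata2 f/f replicate 2 was likewise the highest of its genotype for Klf10, at 122 CPM. Chance marks about 1 group in 20 in this way, and 4 groups were examined. Without Gata2 KO replicate 2 the log2 fold change of Klf10 was 0.53 in edgeR.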

How the results depend on the processing

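Under all alternatives run, the fold changes of Klf4 (2.35 to 3.0) and Klf10 (0.53 to 0.69) kept their sign. Their correlation within genotypes was -0.0891 without both libraries numbered 4, and the cause was not tested. With the replicate block, rows called over the whole table numbered 1237 higher and 1102 lower in Gata2 KO, and neighbouring rows 23 in place of 8. Without both libraries numbered 4 these counts were 894, 543 and 13, and with the replicate block as well 1016, 711 and 15. Leaving out 1 library gave 120 to 381 lower rows in place of 232, with 133 and 128 when replicates 2 and 3 of Gata2 KO were left out, and 148, 120 and 381 for replicates 2, 3 and 4 of Gata2 f/f. Higher rows then ran from 420 to 722. Pathway list rows called ran from 7 to 13 over all alternatives. With no filter Pop1 lost its call (adjusted p = 0.109, edgeR). The block changed the calls of Abca1, Tgfbr1, Rad23b, Matn2 and Atp6v1c1 among the genes named with their values beside Klf4 and Klf10. It also changed those of Tnpo3 among the rows like Klf4, and of Orc3 and Pabpc1 among those like Klf10. Depth limits the precision of Klf4, with 2 to 28 counts in Gata2 f/f libraries.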
